A study of Mus musculus with 15 samples.

Results

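The transcripts described here were the long noncoding RNAs (lncRNAs) of the mouse kidney. They were the Ensembl transcripts listed in all 15 per-mouse files whose class in GENCODE release 21 for mouse (mm10, GRCm38) was lincRNA, antisense, sense_intronic, sense_overlapping or bidirectional_promoter_lncRNA, with an abundance above 0 in at least 5 mice. The rule gave 774 transcripts of 631 genes, of 40054 transcripts listed in all 15 files (1.93%). Of these, 338 were lincRNA, 350 antisense, 63 bidirectional_promoter_lncRNA, 20 sense_intronic and 3 sense_overlapping. Another 35 transcripts of these classes were listed only for the Control mice and 67 only for the other mice, and these were not analysed here. All 15 animals were adult male C57BL/6 WT mice with a subcutaneous osmotic pump for 28 days. Control mice (n = 5) were infused with saline and AngII mice (n = 5) with angiotensin II at 500 ng/kg/min, and both groups were given water by gavage. AngII + QDG mice (n = 5) received the same infusion together with Qingda granule (QDG), a herbal formula, by gavage at 1.145 g/kg/d. No group received QDG without AngII, so an effect of QDG alone was not measured. Each value comes from total RNA of whole renal tissue, and fewer cells of a type cannot be told apart from less RNA per cell.

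An lncRNA is a transcript longer than a short regulatory RNA that codes for no known protein. GENCODE names the classes by position. A lincRNA lies between protein-coding genes, an antisense transcript lies across a coding gene on the other strand, a sense_intronic transcript lies within an intron of a coding gene on its own strand, and a bidirectional_promoter_lncRNA starts beside the start of a coding gene and is read away from it. Some lncRNAs have known work in the nucleus. Malat1 is concentrated in nuclear speckles, where splicing factors gather, and Neat1 is the scaffold of nuclear bodies called paraspeckles. Others, the snoRNA host genes, carry small nucleolar RNAs in their introns, and most lncRNAs have no known function.

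The unit was FPKM (fragments per kilobase of transcript per 1000000 mapped fragments, here 1 M), inferred from the values, and the steps in the values imply 68.9 to 81.3 M fragments per mouse. Control and AngII libraries had medians of 79.4 and 79.1 M fragments, and AngII + QDG libraries 70.0 M. A member had a median of 82.0 implied fragments per mouse, and 7.14% of the members' values rested on under 10. In every listed transcript the larger of the Control and AngII means was at least 0.5 FPKM, and so was the larger of the AngII and AngII + QDG means. A transcript high in AngII therefore passed both lists by that group alone, whereas a transcript under 0.5 FPKM in AngII had to reach it in Control and in AngII + QDG. Among the members, 177 had a Control mean under 0.5 FPKM, 127 an AngII + QDG mean and 30 an AngII mean, and 92 reached 0.5 FPKM in AngII only. These 92 had to be higher in AngII than in the other groups, so counts and medians over all members are descriptions and support no direction. The counts are therefore also given for the 358 members with a mean over all 15 mice above 1 FPKM. Malat1 and the long Neat1 transcript lack a usual poly(A) tail, and the sources name both rRNA depletion and a poly(A) isolation step, so the share of such RNA that was kept is not known. In 2 mice, Control replicate 1 and AngII + QDG replicate 2, Malat1 was nearly missing and the longest Neat1 transcript was far above its level in the other mice. The main results for Neat1, the fragment sums and several counts are given with and without these mice. The log2 differences of Malat1 and the shares of summed FPKM are not given without both.

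Sequences at the exon junctions are shown because they are the parts of Neat1 and Snhg20 that separate a spliced transcript from its unspliced locus. Each line gives 15 bases on both sides of a junction of the GENCODE transcript (GRCm38), 5′ to 3′, with the bases after the junction in capitals. The first Neat1 junction is shared by its 2-exon and 4-exon transcripts, and the other Neat1 junctions belong to the 4-exon transcript only.
Neat1, shared junction: ctctggcccagggtgATAGCAGTGCCCTCT
Neat1, first junction of the 4-exon transcript: ttgacgtccaggaggGTGGACTTAGCTTCG
Neat1, last junction of the 4-exon transcript: gggcacggcattttgTGTTCACCATGGCAA
Snhg20, junction: gcttggttggcccagGTCATTTGACTAGAA
The shared Neat1 intron spans 166 bases, the other Neat1 introns 240 and 143 bases, and the Snhg20 intron 1573 bases.

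The promoter windows of Snhg20 and D630029K05Rik are shown because these genes differed between groups in opposite directions. Each window runs from 250 bases before the RefSeq start to 50 bases after it (GRCm38.p6), and 312 of the 631 member gene symbols had a window in RefSeq. The capitals mark the motif letters found. D630029K05Rik has another RefSeq window (chr10:116964490-116964789), in which none of the searched motifs was found, and the one shown is that of the main transcript's start.
Snhg20 (chr11:117076533-117076832, plus strand): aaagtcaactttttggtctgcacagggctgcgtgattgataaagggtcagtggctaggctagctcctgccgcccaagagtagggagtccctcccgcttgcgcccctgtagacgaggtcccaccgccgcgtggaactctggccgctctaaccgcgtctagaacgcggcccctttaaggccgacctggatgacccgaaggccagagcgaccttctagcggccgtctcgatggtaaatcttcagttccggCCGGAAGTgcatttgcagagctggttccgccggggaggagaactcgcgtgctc
D630029K05Rik (chr10:116966024-116966323, plus strand): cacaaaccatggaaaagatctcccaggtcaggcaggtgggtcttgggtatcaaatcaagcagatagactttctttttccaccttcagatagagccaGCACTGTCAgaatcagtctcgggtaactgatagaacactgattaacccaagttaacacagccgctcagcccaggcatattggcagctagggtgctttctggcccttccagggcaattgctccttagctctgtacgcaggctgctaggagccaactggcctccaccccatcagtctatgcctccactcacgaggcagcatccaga
In the Snhg20 window the letters CCGGAAGT, a motif bound by ETS factors, were found at position 248 of the window. These letters, searched on both strands, were in 3.89% of 32851 RefSeq windows and in 4.90% of the 367 windows of member genes. In the D630029K05Rik window the letters TGACNNNGC, the core of the antioxidant response element, were found on the minus strand, and they were in 12.4% of all windows and 14.7% of the windows of member genes. The letters TGACGTCA and CACGTG and the kappaB motif were searched as well and were in 1.79%, 7.15% and 50.8% of all windows and in 2.45%, 11.2% and 60.8% of the windows of member genes. A match is a description of the letters, and factor binding was not measured.

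Most members were expressed at low levels. The median over members of the mean level was 0.919 FPKM, against 2.95 FPKM for 18527 protein_coding transcripts tested, and their median length was 949.5 bases against 2509 bases. Of the 774 members, 358 had a mean above 1 FPKM, 30 above 10 FPKM and 1 above 100 FPKM, and 636 were above 0 in every mouse. Each library had 738 to 763 of the members above 0. A single exon was annotated for 158 members and 2 exons for 290. The most abundant member held 29.4% of the members' summed FPKM and the 10 most abundant held 46.7%.

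The most abundant member, AY036118 (ENSMUST00000200021, chr17:39847113-39848035, minus strand, 923 bases), is annotated as a lincRNA at a locus that resembles ribosomal RNA. Its levels were 1181, 380, 1425, 922 and 497 FPKM in Control, 740, 746, 435, 826 and 746 FPKM in AngII, and 1214, 812, 676, 646 and 400 FPKM in AngII + QDG. The spread within Control was wider than any difference between the group means, which were 881 ± 443, 699 ± 152 and 750 ± 299 FPKM (SD, n = 5 each). Gm26917 (ENSMUST00000192833), its neighbour on the other strand and the other member of the rRNA-overlapping list, had 11.7 ± 1.80, 16.8 ± 3.30 and 14.4 ± 5.23 FPKM. Its AngII mice lay above all its Control mice (log2 difference 0.47, limma adjusted p = 0.276).

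The other abundant members were steady between mice or swung widely within a group. AI314278 (ENSMUST00000209026), a lincRNA of unknown function, had 39.9 ± 0.603 FPKM in Control, 35.5 ± 4.59 FPKM in AngII and 36.2 ± 3.06 FPKM in AngII + QDG (SD, n = 5 each). 2900097C17Rik (ENSMUST00000192863), known as Norad, which binds Pumilio proteins and guards genome stability, had 29.7 ± 1.91, 32.0 ± 1.37 and 32.9 ± 1.17 FPKM. Tmem250-ps (ENSMUST00000133808) had 31.0 ± 1.89, 35.4 ± 3.05 and 34.3 ± 1.81 FPKM. The bidirectional_promoter_lncRNA Ndufb1-ps (ENSMUST00000221422), of which 17.1% overlaps Cpsf2 exons on the other strand, had 32.2 ± 4.04, 38.6 ± 4.22 and 35.3 ± 4.95 FPKM. In each of these members the groups overlapped in every comparison and no adjusted p was under 0.05. Gm10076 (ENSMUST00000227553), a single exon of 383 bases, had 21.2 to 110 FPKM in Control, 17.2 to 184 FPKM in AngII and 13.4 to 123 FPKM in AngII + QDG, so its range within a group exceeded any difference between groups.

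**Figure D1:**
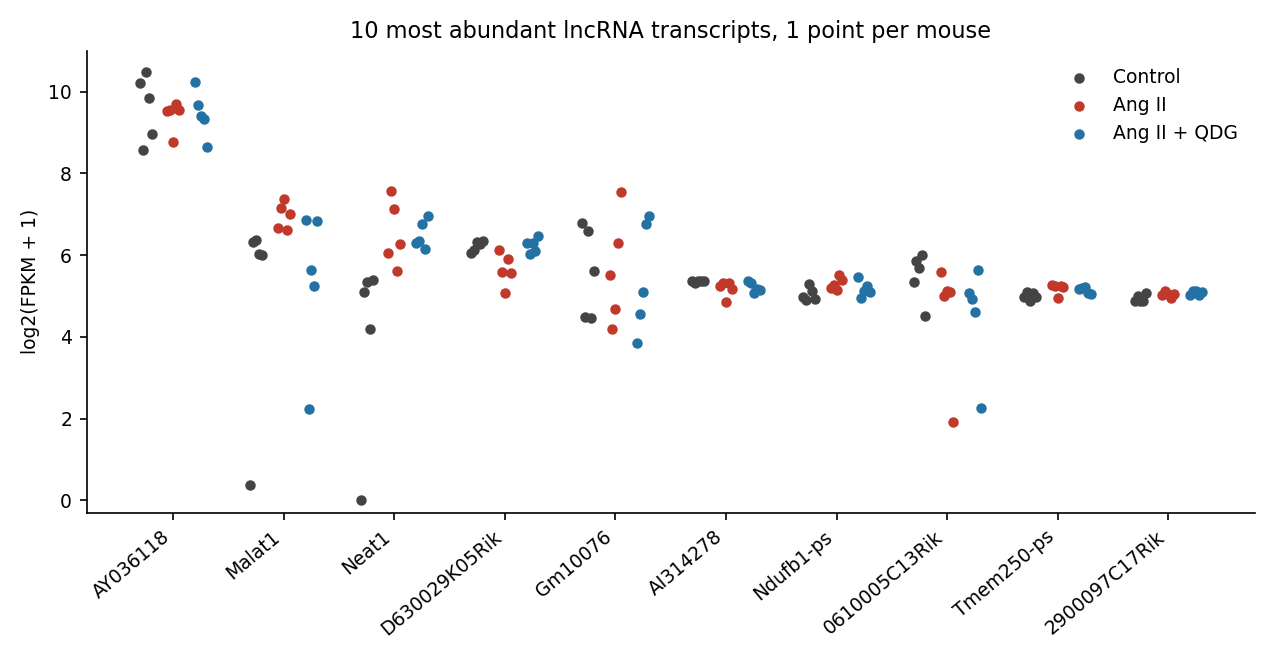
Levels of the 10 most abundant lncRNA transcripts on the log2(FPKM + 1) scale, with 1 point per mouse and 5 mice per group. AY036118 lies above all others, Malat1 and Neat1 each have a Control mouse near 0, and AI314278 and 2900097C17Rik vary little.

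The nuclear body lncRNAs Neat1, with its fragments counted per gene, and Malat1, with 1 listed transcript, were higher in every AngII mouse than in every Control mouse. Neat1 has 3 listed transcripts, which share sequence, so the division of fragments among them is uncertain. The 4-exon transcript (ENSMUST00000174829, chr19:5843681-5845259, minus strand, 1030 bases) had 1.05, 4.16, 2.5, 2.21 and 1.70 FPKM in Control, 9.70, 6.58, 11.1, 6.32 and 8.57 FPKM in AngII, and 4.66, 6.50, 5.89, 5.77 and 7.96 FPKM in AngII + QDG. Every AngII mouse and every AngII + QDG mouse was above every Control mouse, and the AngII and AngII + QDG mice overlapped. This transcript was higher in AngII than in Control by 1.55 on the log2 scale (standard error 0.23, limma adjusted p = 0.0177), and the adjusted p was 0.0534 without Control replicate 1 and AngII + QDG replicate 2. Between AngII + QDG and AngII the log2 difference was −0.39 (standard error 0.23, limma adjusted p = 0.562), and AngII + QDG vs. Control gave 1.16 (limma adjusted p = 0.166).

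The 2-exon transcript of Neat1 (ENSMUST00000174287, chr19:5842307-5845476, 3004 bases) was the third most abundant member. It had 0, 33.3, 39.6, 17.4 and 40.9 FPKM in Control, 65.2, 190, 140, 47.8 and 76.8 FPKM in AngII, and 77.3, 79.7, 107, 70.0 and 123 FPKM in AngII + QDG. Again both AngII groups lay wholly above Control, with log2 differences of 2.53 (standard error 0.83, limma adjusted p = 0.16) and 2.49 (limma adjusted p = 0.409), which were 1.52 and 1.53 without the 2 mice named above. The long single-exon transcript (ENSMUST00000173672, chr19:5824708-5845478, 20771 bases), the form that builds paraspeckles, was at 3.21 FPKM in Control replicate 1 and 7.91 FPKM in AngII + QDG replicate 2, and between 0.0219 and 0.209 FPKM in the other 13 mice.

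To remove the division among transcripts, the fragments of the 3 Neat1 transcripts were summed, as FPKM times length in kilobases, a measure chosen after these values were seen. The sums were 67.8, 105, 123, 55.0 and 125 fragments per M in Control, 207, 580, 436, 151 and 241 in AngII, and 241, 410, 331, 217 and 379 in AngII + QDG. No mouse with AngII overlapped Control. Neat1 rose from 95.2 ± 32.1 to 323 ± 179 fragments per M in AngII (SD, n = 5 each), 3.39-fold (exact permutation p = 0.00794, two-sided, which is the lowest value possible for 5 against 5 mice, and 0.0119 adjusted over 3 comparisons). In AngII + QDG it was at 316 ± 84.4 fragments per M, 3.32-fold above Control (exact permutation p = 0.00794, adjusted 0.0119) and 0.977 times the level in AngII (exact permutation p = 0.937). Without the 2 mice named above, the folds over Control were 3.17 and 2.86 (adjusted p = 0.0429 for both, exact permutation test). The separation from Control was already known from the 2 shorter transcripts, so these p-values describe it and are no separate support. They are adjusted over 3 comparisons and not over the 10 genes measured in this way.

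Malat1 (ENSMUST00000172812, chr19:5795690-5802672, minus strand, 6983 bases, single exon) had 0.289, 79.3, 81.8, 64.3 and 63.5 FPKM in Control, 99.9, 141, 165, 97.8 and 127 FPKM in AngII, and 114, 3.71, 48.6, 36.8 and 114 FPKM in AngII + QDG. All AngII mice were above all Control mice, and AngII + QDG overlapped both. On the log2(FPKM + 1) scale the differences were 1.94 for AngII vs. Control (standard error 1.10, limma adjusted p = 0.404) and −1.60 for AngII + QDG vs. AngII (limma adjusted p = 0.633). The 2 mice with Malat1 nearly missing weigh heavily in these log2 differences, which are not given without them. As fragments per M, where the near-missing values weigh less, Malat1 rose 2.18-fold in AngII over Control (exact permutation p = 0.00794, adjusted 0.0238 over 3 comparisons). It was 0.503 times as high in AngII + QDG as in AngII (exact permutation p = 0.0635, adjusted 0.0952). Without the 2 mice the ratios were 1.75 (exact permutation test, adjusted p = 0.0476) and 0.621 (exact permutation p = 0.127). The values for assembled transcripts come with no position, so fragments of these loci that were given to an assembled transcript are not counted here.

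**Figure D2:**
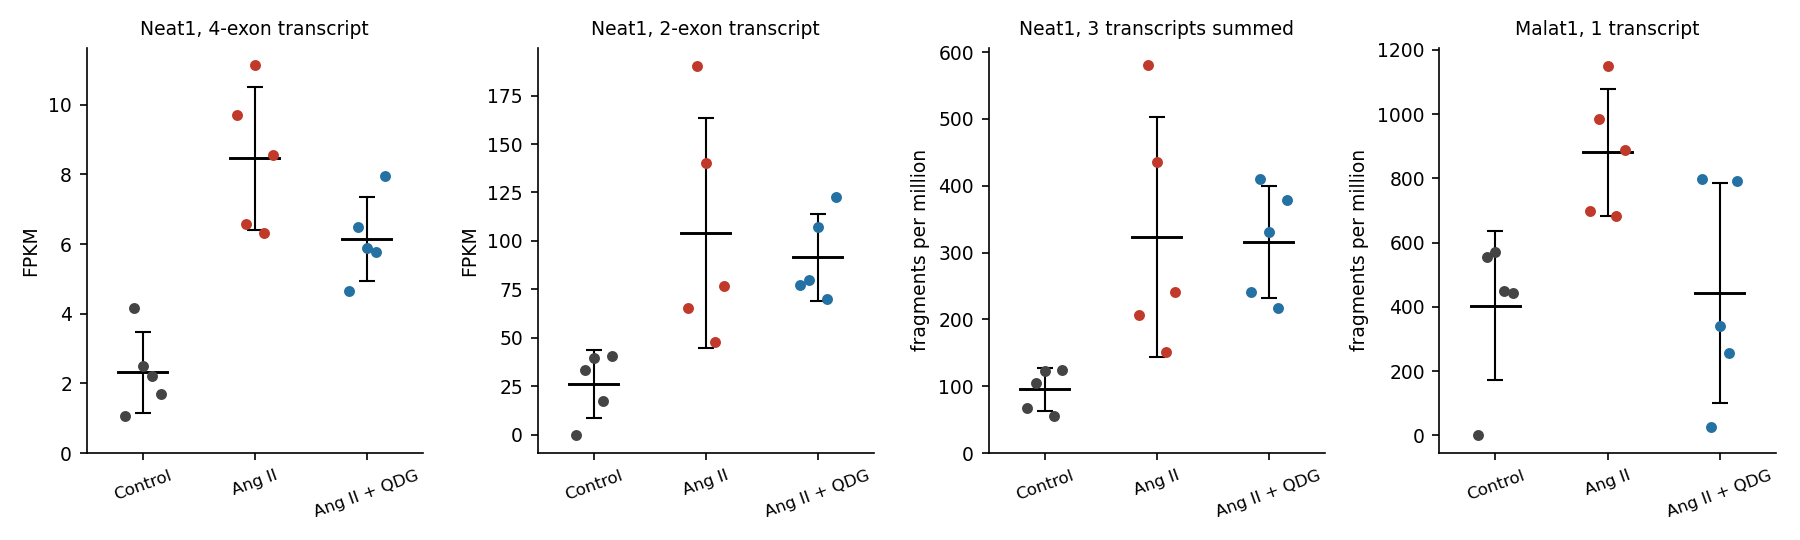
Neat1 and Malat1 by group: FPKM of the 4-exon and 2-exon Neat1 transcripts, then fragments per M of the 3 Neat1 transcripts together and of Malat1. Points are mice (n = 5 per group), lines are means and bars are SD; in the summed Neat1 panel all 10 mice with AngII lie above the highest Control mouse at 125 fragments per M.

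Snhg20, a snoRNA host gene, was the other member that rose in AngII at a limma adjusted p under 0.05. The transcript whose junction and promoter are shown above (ENSMUST00000149822, chr11:117076783-117078955, plus strand, 600 bases) had 6.72, 7.51, 7.10, 5.43 and 4.23 FPKM in Control, 12.1, 15.5, 13.2, 10.1 and 16.6 FPKM in AngII, and 10.7, 11.2, 9.22, 6.32 and 11.2 FPKM in AngII + QDG. Control and AngII did not overlap, and AngII + QDG lay between them and overlapped both. Its log2 difference was 1.01 in AngII vs. Control (standard error 0.18, limma adjusted p = 0.0287), −0.44 in AngII + QDG vs. AngII (limma adjusted p = 0.407) and 0.57 in AngII + QDG vs. Control (limma adjusted p = 0.389). The adjusted p of the first comparison was 0.0501 after quantile normalization, and it ranged from 0.0344 to 0.08 when single mice were left out, above 0.05 in 6 of 10 fits. Summed over its 2 listed transcripts, Snhg20 had a log2 difference of 1.00 (limma adjusted p = 0.0116 over 13930 genes).

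Among the snoRNA hosts, Snhg20 was the only transcript with an adjusted p under 0.05. Of 26 members from 12 of the 22 listed host genes, 5 were higher and 1 lower in AngII vs. Control at an unadjusted p under 0.05. Of all 39720 transcripts tested, 13.5% were higher and 3.02% lower. Under quantile normalization the counts were 2 higher and 2 lower (6.38% and 6.94% of all), and the same under median scaling (7.88% and 7.80% of all). Transcripts of Snhg12 differed in both directions, 3.47 to 1.62 FPKM for ENSMUST00000153474 and 0.782 to 1.75 FPKM for ENSMUST00000126380, while the sum over its 6 transcripts was 7.24 ± 1.28 FPKM in Control and 8.10 ± 1.66 FPKM in AngII (limma adjusted p = 0.6). The most abundant host, Snhg18 (ENSMUST00000181536), had 15.1 ± 0.893, 13.7 ± 2.85 and 16.8 ± 0.571 FPKM. Snhg6 (ENSMUST00000182580) had 11.1 ± 2.64, 10.9 ± 1.99 and 9.62 ± 1.34 FPKM, and Snhg8 (ENSMUST00000196466) 8.95 ± 2.20, 9.35 ± 2.65 and 9.13 ± 2.85 FPKM (SD, n = 5 each).

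D630029K05Rik, an abundant lincRNA of unknown function, was lower in AngII and higher again in AngII + QDG. Its main transcript (ENSMUST00000033651, chr10:116966274-116969105, plus strand, 2133 bases) had 65.9, 69.4, 78.8, 76.5 and 80.9 FPKM in Control, 68.8, 47.3, 32.9, 59.1 and 46.2 FPKM in AngII, and 77.8, 64.0, 78.0, 68.0 and 87.8 FPKM in AngII + QDG. In AngII, 4 of 5 mice were below every mouse of the other groups. The transcript's log2 differences were −0.58 (standard error 0.16, limma adjusted p = 0.102) and 0.59 (limma adjusted p = 0.178). Summed over its 4 transcripts, the gene had 107 ± 8.52 FPKM in Control, 74.1 ± 19.6 in AngII and 116 ± 14.3 in AngII + QDG (SD, n = 5 each). On these sums it fell by 0.56 on the log2 scale in AngII vs. Control (limma adjusted p = 0.0478) and rose by 0.67 in AngII + QDG vs. AngII (limma adjusted p = 0.0457). The AngII mice are shared by both comparisons.

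In AngII vs. Control, 7 members were upregulated and 0 downregulated by the study's rule (a change of 2-fold or more with p under 0.05 before adjustment), where 1.55% of all transcripts tested were upregulated and 0.728% downregulated. These counts became 68 and 7 with a pseudocount of 0.1 (2777 and 555 of all 39720 transcripts). They were 4 and 0 with median scaling (412 and 434 of all) and 4 and 1 with quantile normalization (409 and 425 of all). At an unadjusted p under 0.05 without the fold, 148 members were higher and 16 lower (19.1% and 2.07%, against 13.5% and 3.02% of all). The excess of higher members rests on the scaling, with 100 higher and 48 lower after median scaling and 52 and 57 after quantile normalization. Among members with a mean above 1 FPKM, 54 of 358 were higher and 10 lower (15.1% and 2.79%), where 11.8% and 3.8% of the 26371 transcripts at this level were, and 6 were upregulated and 0 downregulated (background 2.13% and 1.05%). At this level the scalings gave 33 higher and 34 lower, and 31 and 28, with 3 upregulated and 0 downregulated under both. The groups did not overlap in 58 members that were higher and 7 that were lower, against 4.41% and 0.851% of all. After Benjamini-Hochberg adjustment in limma, 3 members passed 0.05, where 0.403% of all transcripts did. They were the 4-exon Neat1 transcript, Snhg20 and Gm17196. Without Control replicate 1 and AngII + QDG replicate 2 none of the members passed, and 123 were higher and 18 lower at an unadjusted p under 0.05. Without Control replicate 1, Control replicate 3 or AngII replicate 5 only 1 member passed, 5 passed without AngII replicate 1 and 6 without AngII + QDG replicate 4.

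Gm17196 (ENSMUST00000164074, chr10:41553762-41556552, plus strand, 345 bases) was the member that fell at an adjusted p under 0.05. Its AngII mean was under 0.5 FPKM, so by the listing its means in the other groups had to lie above it. It is annotated as antisense to Ccdc162, of which it overlaps exons over 18.3% of its length and which had no value here. It had 0.84, 1.46, 1.04, 1.78 and 0.603 FPKM in Control, 0.366, 0.183, 0, 0.123 and 0.226 FPKM in AngII, and 0.416, 0.876, 0.547, 0.62 and 0.248 FPKM in AngII + QDG. Every AngII mouse was below every Control mouse, and AngII + QDG overlapped both. It fell by 0.84 on the log2(FPKM + 1) scale (standard error 0.16, limma adjusted p = 0.0385). The adjusted p was above 0.05 in 8 of the 10 fits that left out a Control or AngII mouse (0.0385 to 0.0909) and was 0.0759 with only the mice of the 2 groups. These are small numbers, with a median of 27 implied fragments in Control, 5 in AngII and 13 in AngII + QDG.

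The other upregulated members were Gm48702, Gm15347, Gm44785 and a transcript of 0610005C13Rik, all without an adjusted p under 0.05. Gm48702 (ENSMUST00000214931, chr9:44799258-44802838, plus strand) had 8.94, 13.5, 5.72, 5.27 and 11.5 FPKM in Control, 21.2, 33.5, 28.1, 19.4 and 21.5 FPKM in AngII, and 19.3, 11.4, 11.7, 2.37 and 17.1 FPKM in AngII + QDG. The AngII mice lay above all others, with log2 differences of 1.42 (limma adjusted p = 0.119) from Control and −1.14 (limma adjusted p = 0.337) in AngII + QDG vs. AngII. Of its length, 54.6% overlaps exons of Ttc36 on the other strand, and Ttc36 had 482 FPKM in Control, 613 in AngII and 503 in AngII + QDG (log2 difference 0.35, limma adjusted p = 0.0353). Whether fragments were counted by strand is not given in the sources used here, and without strand those of Ttc36 and Gm48702 cannot be told apart in the overlap.

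Gm15347 (ENSMUST00000145372, chr8:12860358-12877344, minus strand) had 1.47, 1.18, 0.935, 0.735 and 0.81 FPKM in Control, 1.21, 4.16, 6.11, 2.35 and 4.42 FPKM in AngII, and 1.08, 0.716, 1.39, 0.555 and 1.93 FPKM in AngII + QDG. In AngII, 4 of 5 mice were above all mice of the other groups (log2 differences 1.10, limma adjusted p = 0.0872, and −1.05, limma adjusted p = 0.178). Its partner Atp11a, a phospholipid flippase gene whose exons cover 44.7% of it, had 70.5, 114 and 52.8 FPKM. Gm44785 (ENSMUST00000207379) was at or below 0.0407 FPKM in every Control and AngII + QDG mouse and at 1.02, 0.0203, 2.91, 1.94 and 1.07 FPKM in AngII. It is among the members listed through AngII only, and the sum over both of its transcripts was 3.02 ± 0.804, 3.86 ± 1.38 and 2.48 ± 0.425 FPKM. For 0610005C13Rik, antisense to Bcat2, the transcript ENSMUST00000210965 was higher in AngII (3.31 ± 0.926 to 8.17 ± 3.82 FPKM) while the more abundant ENSMUST00000210569 was at 46.5 ± 16.3 and 29.6 ± 16.3 FPKM, and the log2 difference of the gene's sum was −0.24. In its case the mice differed in which transcript held the fragments, and the gene as a whole did not pass the test (limma adjusted p = 0.338).

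Between AngII + QDG and AngII, 3 members passed the study's threshold upward and 5 downward, against 0.697% and 1.08% of all transcripts tested. With a pseudocount of 0.1 these were 13 and 33, where 595 and 1311 of all 39720 transcripts passed. At an unadjusted p under 0.05, 36 members were higher and 64 lower, against 3.61% and 7.15% of all. The counts were 41 and 52 with median scaling (5.30% and 6.72%, against 4.19% and 5.64% of all). They turned to 61 and 41 with quantile normalization (7.88% and 5.30%, against 5.55% and 4.78% of all). Among members above 1 FPKM the counts were 26 higher and 25 lower of 358 (7.26% and 6.98%), where 4.5% and 6.92% of all transcripts at this level were, and 3 were upregulated and 3 downregulated (background 1% and 1.48%). At this level median scaling gave 30 higher and 19 lower (8.38% and 5.31%, against 5.32% and 5.20% of all). Quantile normalization gave 38 and 20 (10.6% and 5.59%, against 6.38% and 5.31% of all). In 12 members the AngII + QDG mice lay above all AngII mice and in 14 below, against 0.939% and 1.84% of all. The limma adjusted p was under 0.05 for 0 members, where 0.068% of all transcripts passed, and the lowest was 0.0832.

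The downregulated members included Gm48702, Gm15347 and Gm44785, described above, and Gm31774 and Gm37494. Gm31774 (ENSMUST00000212910, chr8:117746331-117748260, minus strand) had 1.01, 0.396, 0.673, 1.04 and 0.39 FPKM in Control, 0.628, 2.91, 3.28, 1.5 and 1.06 FPKM in AngII, and 0.305, 0, 0.404, 0.313 and 0.533 FPKM in AngII + QDG. All AngII + QDG mice were below all AngII mice, a log2 difference of −1.05 (standard error 0.25, limma adjusted p = 0.132 over transcripts and 0.0466 over gene sums). Its AngII + QDG mean was under 0.5 FPKM, so by the listing its AngII mean had to lie above it. Gm37494 (ENSMUST00000188038), a long transcript of 16021 bases, was at 0.891 to 2.85 FPKM in AngII and listed at 0 in 4 of 5 AngII + QDG mice, with 3.00 FPKM in the fifth.

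The upregulated members were Gm15441, Gm16136 and Gm13412. Gm15441 (ENSMUST00000107095, chr3:96555788-96566801, minus strand) had 1.03, 0.402, 0.54, 0.811 and 2.87 FPKM in Control, 0.259, 0.649, 1.78, 2.22 and 0.684 FPKM in AngII, and 2.52, 2.14, 2.78, 2.92 and 8.90 FPKM in AngII + QDG. It was high in AngII + QDG, where 4 mice were close together and 1 stood apart, with log2 differences of 1.14 from AngII (standard error 0.37, limma adjusted p = 0.262) and 1.14 from Control (limma adjusted p = 0.397). It is antisense to Txnip, an inhibitor of thioredoxin, whose exons cover 36.7% of it and which had 99.2, 104 and 121 FPKM. Gm16136 (ENSMUST00000160264), antisense to the epithelial transcription factor gene Grhl2, had 2.49 to 3.64 FPKM in AngII + QDG and 0 to 3.45 FPKM in AngII, with 3 AngII mice listed at 0. Gm13412 (ENSMUST00000150621) had 1.48 to 3.82 FPKM in AngII + QDG, above all AngII mice at 0 to 1.36 FPKM, with a log2 difference of 1.04 (limma adjusted p = 0.325).

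Between AngII + QDG and Control, 4 members passed the study's threshold upward and 2 downward, against 0.886% and 0.655% of all. With a pseudocount of 0.1 these were 25 and 6, where 1251 and 530 of all 39720 transcripts passed. At an unadjusted p under 0.05, 68 were higher and 13 lower (against 6.51% and 2.39%). Median scaling gave 43 and 24 (5.56% and 3.10%, against 3.71% and 5.80% of all), and quantile normalization 42 and 25 (5.43% and 3.23%, against 3.98% and 3.71%). Among members above 1 FPKM 40 were higher and 9 lower of 358 (11.2% and 2.51%, against 6.86% and 2.99%). The scalings gave 23 and 18 (6.42% and 5.03%, against 3.56% and 7.70%), and 26 and 16 (7.26% and 4.47%, against 4.57% and 4.27%). At this level 4 were upregulated and 2 downregulated (background 1.27% and 0.933%). No overlap between the groups was found for 17 members that were higher and 4 that were lower, against 1.61% and 0.534% of all. The limma adjusted p was under 0.05 for 0 members, where 0.0151% of all transcripts passed. The upregulated members were both short Neat1 transcripts, Gm15441 and Gm16136, and the downregulated ones AW112010 and Gm15318. AW112010 (ENSMUST00000099676, chr19:11047617-11050566, minus strand), a transcript induced in immune cells, had 3.90, 5.34, 4.66, 3.32 and 3.54 FPKM in Control, 3.49, 2.08, 2, 3.01 and 2.68 FPKM in AngII, and 0.466, 2.66, 0.151, 1.30 and 3.25 FPKM in AngII + QDG. Every AngII + QDG mouse was below every Control mouse, though they ranged widely, with a log2 difference of −1.17 (standard error 0.31, limma adjusted p = 0.307). Summed leukocyte markers were at 3.83 to 5.54 FPKM in Control, 2.59 to 4.18 in AngII and 3.65 to 7.82 in AngII + QDG, with Cd3e, Cd79a and Itgam without a value, and their part in the level of AW112010 was not tested. Gm15318 (ENSMUST00000139773) had 1.83 ± 1.19 FPKM in Control, 0.868 ± 0.538 in AngII and 0.326 ± 0.542 in AngII + QDG.

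**Figure D3:**
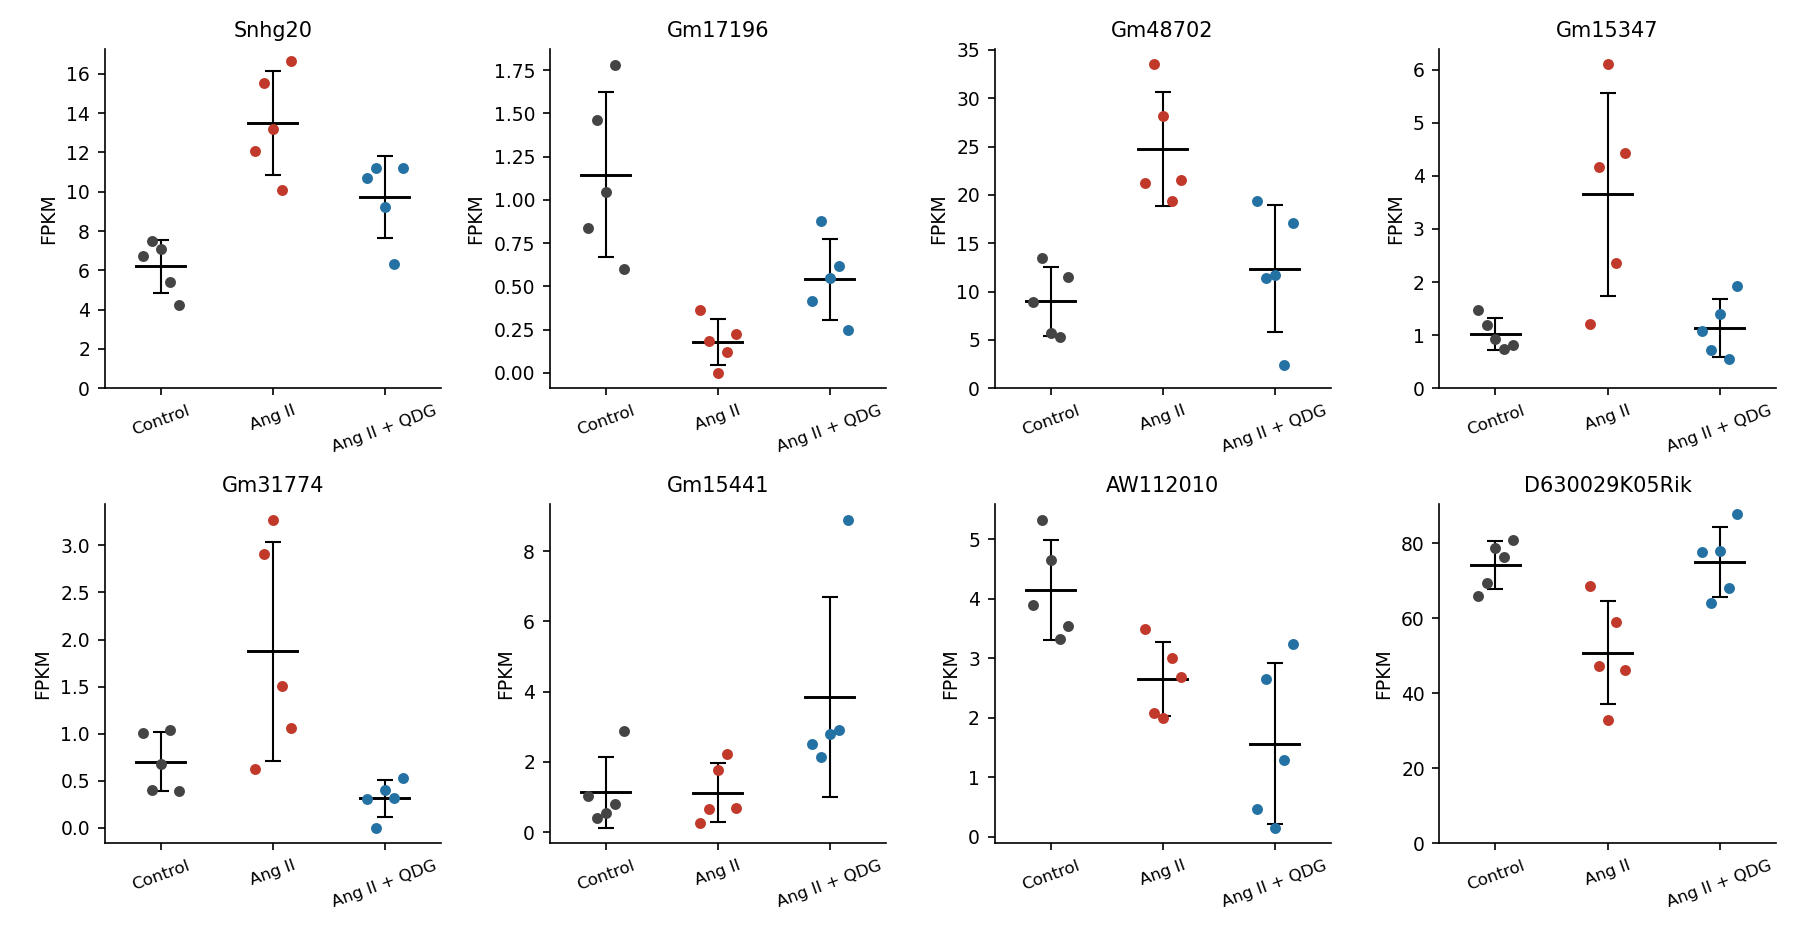
FPKM of 8 lncRNA transcripts by group, with 1 point per mouse (n = 5 per group), lines for means and bars for SD. Snhg20 and Gm48702 are higher and Gm17196 is lower in every AngII mouse than in every Control mouse, Gm31774 is lower in every AngII + QDG mouse than in every AngII mouse, and D630029K05Rik is lowest in AngII.

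Summed over the transcripts of each gene, more member genes passed. In AngII vs. Control, 30 of 631 member genes were higher and 5 lower at a limma adjusted p under 0.05, where 4.39% and 0.804% of 13930 genes were, so both shares were close to the background (4.75% and 0.792%). Besides Snhg20 and Neat1, the higher ones in limma included 1810032O08Rik, whose 5 transcripts summed to 3.02 ± 0.656 FPKM in Control and 5.08 ± 0.662 FPKM in AngII (log2 difference 0.61, limma adjusted p = 0.0223), and AI480526, at 2.14 ± 0.630 and 5.60 ± 1.18 FPKM (log2 difference 1.08, limma adjusted p = 0.0379). Gm43579 rose from 2.74 ± 0.886 to 4.55 ± 0.358 FPKM and Gm12473 from 1.16 ± 0.216 to 2.23 ± 0.328 FPKM. The genes that fell were Gm17196, Gm45494, Gm29012, Gm5524 and D630029K05Rik. Gm29012 fell from 3.46 ± 0.756 to 1.73 ± 0.677 FPKM and Gm5524 from 3.16 ± 0.245 to 1.82 ± 0.718 FPKM (SD, n = 5 each). In AngII + QDG vs. AngII, D630029K05Rik and Gm7932 rose, the latter from 2.31 ± 0.348 to 3.70 ± 0.25 FPKM (limma adjusted p = 0.028). Gm15563, Gm30934 and Gm31774 fell, so that 2 genes were higher and 3 lower, against 0.373% and 1.07% of all genes. In AngII + QDG vs. Control 0 member genes passed in limma, where 0.0861% of genes were higher and 0.0287% lower. The genes of this paragraph other than the named members above were chosen after their values were seen.

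Of the remaining lists of known lncRNAs, counts at an unadjusted p under 0.05 are given. Of 11 imprinted lncRNA genes, 3 were among the members, and 0 of their 3 transcripts passed an unadjusted p under 0.05 in limma for AngII vs. Control. Peg13 (ENSMUST00000202826), imprinted in the brain, had 6.94 ± 1.29 FPKM in Control, 6.93 ± 0.619 in AngII and 8.72 ± 0.859 in AngII + QDG, Snhg14 (ENSMUST00000188976) had 0.873 ± 0.101, 1.19 ± 0.246 and 1.21 ± 0.259 FPKM, and Airn (ENSMUST00000160932) was listed at 0 in 8 mice. Ftx, a regulator of X inactivation, had 0.676 ± 0.196, 0.766 ± 0.260 and 0.691 ± 0.290 FPKM for ENSMUST00000156211. Of 8 transcripts of widely expressed regulatory lncRNAs, 1 was higher and 0 lower in AngII vs. Control at an unadjusted p under 0.05 (background 13.5% and 3.02%), and the counts were 0 and 1 with median scaling and 0 and 0 with quantile normalization. Tug1, which is needed for male fertility, divided its fragments unevenly. ENSMUST00000153313 had 3.79 ± 2.09, 5.49 ± 2.57 and 2.77 ± 0.421 FPKM and ENSMUST00000132077 3.57 ± 1.71, 2.13 ± 1.42 and 4.69 ± 0.531 FPKM, while the gene's summed fragments were steady at 55.5 ± 5.01, 55.3 ± 5.37 and 60.2 ± 3.28 per M. Antisense partners of developmental transcription factors had 0 of 15 transcripts at an unadjusted p under 0.05 in this comparison, with Lhx1os (ENSMUST00000134800) at 9.16 ± 1.65, 11.0 ± 1.68 and 10.3 ± 2.62 FPKM and Hotairm1 (ENSMUST00000132559) at 5.22 ± 0.930, 6.03 ± 1.27 and 5.76 ± 1.26 FPKM. The miRNA host lncRNAs (0 of 5), the immune lncRNAs (0 of 4) and the X-linked lncRNAs (0 of 2) had none either, except that 1 immune transcript was lower with median scaling and 1 antisense partner with quantile normalization.

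Between AngII + QDG and AngII at an unadjusted p under 0.05 (background 3.61% higher and 7.15% lower), these lists had calls in both directions. Of the 4 immune transcripts 2 were lower, AW112010 and a Dleu2 transcript (ENSMUST00000183066, 0.81 ± 0.487 FPKM in AngII and 0.189 ± 0.207 FPKM in AngII + QDG), and 1 was lower under either scaling. The AngII + QDG mean of the Dleu2 transcript was under 0.5 FPKM, so by the listing its AngII mean had to lie above it, and the same transcript was the 1 of 5 miRNA hosts that was lower. Of the 3 imprinted transcripts 1 was higher, Peg13. Of the antisense partners of developmental transcription factors 1 of 15 was higher, and of the widely expressed regulatory lncRNAs 1 of 8 was higher and 1 lower (0 lower under either scaling). In AngII + QDG vs. Control (background 6.51% and 2.39%), 1 of 3 imprinted, 1 of 15 antisense partners and 1 of 8 regulatory transcripts were higher, and 1 of 4 immune transcripts, AW112010, was lower. With median scaling none of these 3 lists had a higher transcript, and with quantile normalization 1 imprinted transcript was higher, and 1 antisense partner was lower under either. The X-linked lncRNAs had 0 of 2 in both comparisons, and no transcript of these lists had a limma adjusted p under 0.05.

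Differences between the classes of lncRNA were not tested, and their counts are given as descriptions. Among members above 1 FPKM, 28 of 150 antisense transcripts were higher than in Control at an unadjusted p under 0.05 and 3 lower (18.7% and 2%), whereas 21 of 166 lincRNA transcripts were higher and 6 lower (12.7% and 3.61%). All transcripts at this level had 11.8% and 3.8%, and retained_intron transcripts, spliced forms of coding genes that keep an intron, 25.1% and 1.93%. The excess of higher over lower calls depended on the scaling, for these classes and for all transcripts. After scaling to equal medians, the antisense transcripts above 1 FPKM had 15 higher and 15 lower (10% each). The lincRNA transcripts then had 14 and 17 (8.43% and 10.2%), and all transcripts at this level 5.82% and 10.4%. After quantile normalization antisense had 15 and 14 (10% and 9.33%) and lincRNA 13 and 12 (7.83% and 7.23%), against 6.87% and 7.60% of all. These scalings moved the median log2 difference of all transcripts from 0.13 to 0.01 and −0.00284. The retained_intron transcripts above 1 FPKM kept their direction under both (16.9% and 3.56%, then 15.9% and 3.51%).

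All 20 sense_intronic members had a log2 difference above 0 in AngII vs. Control, where 65.1% of all transcripts tested did. Of the 20, 12 had a Control mean under 0.5 FPKM and entered that listing through AngII, so this count is fixed in part by the listing. Of the 6 with a mean above 1 FPKM, 6 were higher, where 60.65% of all transcripts at this level were. An unadjusted p under 0.05 was found for 2 (11.8% of all were higher at this p). Under each scaling 3 of the 6 were higher (43.7% of all with median scaling and 47.5% with quantile normalization). The host gene was listed for all 20. Gm16310 (ENSMUST00000124376), within Mrps6 and with a Control mean under 0.5 FPKM, had a log2 difference of 0.62 and its host 0.26, and Gm17491 (ENSMUST00000180411), within Slc20a2, had 0.55 and its host 0.58. Unspliced RNA of the host and the intronic transcript cannot be told apart here.

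**Figure D4:**
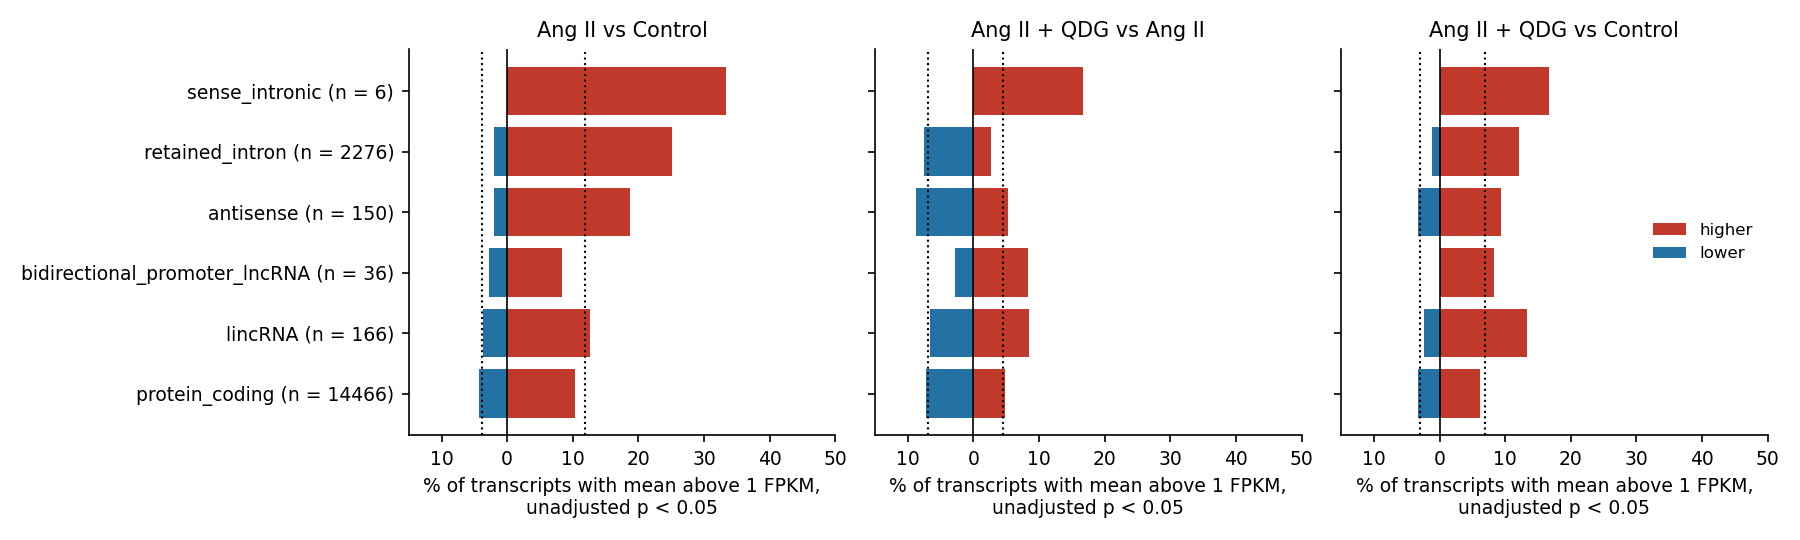
Percent of transcripts with a mean above 1 FPKM that were higher (red, to the right) or lower (blue, to the left) at an unadjusted p under 0.05, by annotated class and comparison, with the number of transcripts beside each class. Dotted lines mark the percent of all transcripts at this level. In AngII vs. Control the retained_intron, antisense, lincRNA (12.7%) and sense_intronic (2 of 6) bars pass the line of 11.8% on the right. With median scaling antisense has 15 higher and 15 lower (10% each, against 5.82% and 10.4% of all).

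Antisense members share sequence with coding genes on the other strand. Exons of a coding gene overlapped 289 members on the opposite strand, of which 242 were antisense and 26 lincRNA, and for 47 members at least 50% of the length was covered. Over 295 pairs with a listed partner, Pearson's r between the log2 difference of a member and its partner was 0.27 in AngII vs. Control. It was 0.29 in AngII + QDG vs. AngII and 0.13 in AngII + QDG vs. Control. These are correlations across pairs of the same libraries that may share fragments and are not independent.

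Summed, the members held little of the measured RNA. Their share of the FPKM of all listed transcripts was 0.470 ± 0.0720% in Control, 0.508 ± 0.0416% in AngII and 0.485 ± 0.0584% in AngII + QDG (SD, n = 5 each), and AngII differed from Control by 0.0382 percentage points (exact permutation p = 0.31, adjusted 0.698). AY036118 carries much of the spread. Without it the shares were 0.311 ± 0.0175%, 0.377 ± 0.0232% and 0.347 ± 0.0342%, but these sums include the 92 members listed through AngII only. The 562 members with Control and AngII + QDG means of at least 0.5 FPKM were listed whatever their AngII level, and this choice was made after the data were seen. Without AY036118 they held 0.293 ± 0.0147% in Control, 0.348 ± 0.0232% in AngII and 0.328 ± 0.0308% in AngII + QDG (SD, n = 5 each). Every AngII mouse was above every Control mouse (exact permutation p = 0.00794, adjusted 0.0238), and AngII + QDG overlapped AngII (exact permutation p = 0.294) and Control (exact permutation p = 0.0397, adjusted 0.0595). The mitochondrial share moved the other way, from 19.4% in Control to 15.6% in AngII. In AngII + QDG it was 18.3%, with every mouse above every AngII mouse. Over nuclear Ensembl transcripts alone, these members without AY036118 held 0.422 ± 0.0186%, 0.479 ± 0.0317% and 0.462 ± 0.0404%, and every AngII mouse was again above every Control mouse (exact permutation p = 0.00794, adjusted 0.0238). Control replicate 1, with Malat1 at 0.289 FPKM, is included in these shares, which are not given without it. Malat1 and Neat1, described above, held 62.9% of the difference in summed FPKM of these members between AngII and Control. Without their 4 transcripts the other 557 held 0.277 ± 0.00971% in Control, 0.303 ± 0.0255% in AngII and 0.298 ± 0.0222% in AngII + QDG, AngII and Control overlapped and the test was not passed (exact permutation p = 0.0794, adjusted 0.119, and p = 0.317 over nuclear Ensembl transcripts).

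**Figure D5:**
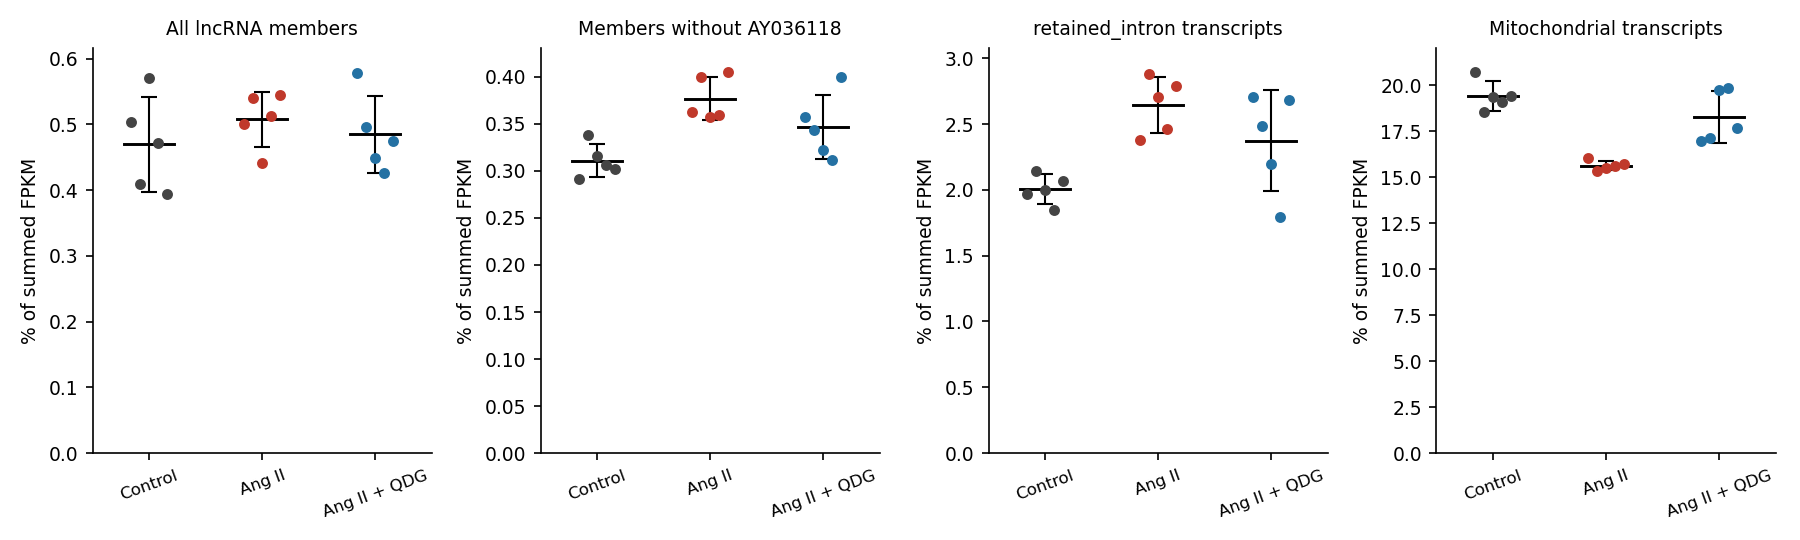
Percent of the summed FPKM of all listed transcripts held by all lncRNA members, by the members without AY036118, by retained_intron transcripts and by mitochondrial transcripts. Points are mice (n = 5 per group), lines are means and bars are SD; without AY036118 the AngII mice lie above all Control mice, in a sum that includes the 92 members listed through AngII only, and the mitochondrial share is lowest in AngII.

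The kidney origin of the samples was seen in proximal tubule markers, which summed to 2769 to 4115 FPKM over all mice. Podocyte markers summed to 76.6 to 85.7 FPKM in Control and 103 to 130 FPKM in AngII, with 2 of 4 higher at a limma adjusted p under 0.05, and smooth muscle and pericyte markers to 38.5 to 52.0 and 45.3 to 100.1 FPKM, with 2 of 5. In AngII + QDG these sums were 100.4 to 127 and 54.5 to 65.0 FPKM, both wholly above Control. The part of cell composition in the differences of Neat1, Malat1 and Snhg20 was not tested. Cyp11a1, Cyp11b1 and Cyp21a1 of the adrenal cortex had no value, and erythroid markers summed to 545 to 1362 FPKM in Control, 1115 to 1943 in AngII and 1557 to 2818 in AngII + QDG.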

How the data were processed

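Renal RNA of 15 mice, 5 per group, was sequenced after rRNA depletion, per the labels, as paired-end libraries. The study's methods also name a poly(A) isolation kit, and which step made these libraries is not settled by the sources used here. The aligner, assembler and annotation are not given in the sources used here, and the submitters' processing notes name mm10 and limma. The deposited values carry no unit. They were taken as FPKM, made by the authors from mapped fragments, because 98.6% to 98.8% of them are whole multiples of a step per transcript (tolerance 0.02 fragments). Groups came from the labels. Classes, positions and exons were taken from GENCODE release 21 and promoter windows from RefSeq, matched by identifier and symbol. Values were transformed to log2(FPKM + 1), which understates changes of low transcripts, and 39720 shared transcripts above 0 in at least 5 mice were fitted in 1 model of the 3 groups with limma (version 3.58.1, R 4.3.3, eBayes with trend), with Benjamini-Hochberg adjustment over all of them. Sums per gene were fitted likewise. Shares and summed fragments were compared with exact two-sided permutation tests (scipy 1.17.1) and adjusted over 3 comparisons. The limma test was checked on simulated normal values, with changes added only to transcripts of higher level and small spread. That check did not include the listing limit, values of 0 or the shifts of fragments between transcripts of a gene. Named transcripts were the 10 most abundant, those past the study's threshold, those with an adjusted p under 0.05 and the most abundant of each list. Others, including those of Snhg12, of Tug1 and within introns, were chosen after their values were seen. The members and lists were chosen with earlier results of these data known. Labels name separate mice, and p-values measure the spread between them. Alternatives were another pseudocount, filter or scaling, no trend, the mice of 2 groups only, sums per gene and leaving out mice. Fragment sums, the level limits, the shares of the 562 members listed without AngII (with and without Malat1 and Neat1) and leaving out 2 mice together were added after the data were seen. The assembled transcripts, which carry no gene name or position, entered the fit and are not reported. The values of 1 member and its host gene are not reported here.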

Additional observations from a re-analysis of the deposited data

Results flagged for a closer look

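A mouse stood apart from the other 4 of its group in 14 of 141 groups examined over 46 named transcripts and the members' share of summed FPKM (gap over range above 0.71), where chance gives about 1 in 20. Neat1 and Malat1 account for 3 of these in 2 mice. In Control replicate 1 Malat1 was at 0.289 FPKM, with 63.5 to 81.8 FPKM in the other Control mice, and the long Neat1 transcript was at 3.21 FPKM against 0.0219 to 0.0629 FPKM. In AngII + QDG replicate 2 the long Neat1 transcript was at 7.91 FPKM, with 0.0439 to 0.209 FPKM in the others. Malat1 in that mouse, at 3.71 FPKM, did not pass the same limit.

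AY036118 was lowest in AngII replicate 3 at 435 FPKM (740 to 826 FPKM in the others). Tmem250-ps was lowest in the same mouse at 30.03 FPKM (36.1 to 37.3 FPKM). AI314278 was lowest in Control replicate 2 at 38.9 FPKM, close to the others at 40 to 40.3 FPKM.

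High single mice were found for Tug1 ENSMUST00000153313 in Control replicate 5 (7.41 FPKM against 2.12 to 3.57 FPKM), Pantr1 in Control replicate 2 (4.91 FPKM against 1.33 to 2.30 FPKM) and Snhg14 in Control replicate 2 (1.05 FPKM against 0.802 to 0.863 FPKM). Gm15441 was highest in Control replicate 5 (2.87 FPKM against 0.402 to 1.03 FPKM) and in AngII + QDG replicate 5 (8.90 FPKM against 2.14 to 2.92 FPKM). In AngII + QDG, Gm37494 was at 3.00 FPKM in replicate 5 and listed at 0 in the others, Gm15318 was at 1.27 FPKM in replicate 3 against 0.0186 to 0.302 FPKM, and Gm44785 was at 0.0234 FPKM in replicate 3 and at 0 in the others. The causes were not tested.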

How the results depend on the processing

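In AngII vs. Control, the 7 upregulated and 0 downregulated members became 68 and 7 with a pseudocount of 0.1 (2777 and 555 of all 39720 transcripts). They became 4 and 1 with quantile normalization (409 and 425 of all). Median scaling and sums per gene gave 4 upregulated each, and 1 was downregulated without Control replicate 1 and AngII + QDG replicate 2. Leaving out single mice gave 5 to 7 upregulated and 0 to 1 downregulated. Members with an adjusted p under 0.05 (3) numbered 1 with only the mice of the 2 groups, 0 without the 2 mice named, 35 with sums per gene and 1 to 6 without single mice. In AngII + QDG vs. AngII (3 upregulated, 5 downregulated, 0 adjusted), the pseudocount of 0.1 gave 13 and 33 (595 and 1311 of all). Leaving out the 2 mice gave 3 downregulated, sums per gene 5 adjusted, and leaving out single mice 1 to 5, 2 to 6 and 0 to 1. In AngII + QDG vs. Control (4 and 2), the pseudocount gave 25 and 6 (1251 and 530 of all). Leaving out the 2 mice gave 2 upregulated, sums per gene 1 downregulated, and leaving out single mice 2 to 4 and 1 to 3. The members' median log2 difference relative to all transcripts was near 0 in each comparison and is read in no direction. It was 0.0105 in AngII vs. Control (−0.00957 with quantile normalization, 0.0546 with sums per gene, −0.00241 to 0.0276 without single mice). For AngII + QDG vs. AngII it was 0.00172 (−0.0330 with sums per gene, −0.00508 with the pseudocount of 0.1, −0.00507 with the filter of 1 FPKM, −0.00483 with median scaling, −0.00798 without the 2 mice and −0.0148 to 0.0162 without single mice). For AngII + QDG vs. Control it was 0.0181 (0.0593 with the pseudocount, −0.00155 with quantile normalization). The members' share in AngII vs. Control passed the test without the rRNA-overlapping members (0.0650 percentage points) and without the most abundant member (0.0660 percentage points), both sums including members listed through AngII only and Malat1 and Neat1.

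Besides these medians, values that changed sign were the log2 difference of 0610005C13Rik ENSMUST00000210965 with sums per gene (−0.24), and, when single mice were left out, the share in AngII + QDG vs. Control (−0.00817 to 0.0404 percentage points), Malat1 fragments in AngII + QDG vs. Control (−61.8 to 143 per M) and Neat1 fragments in AngII + QDG vs. AngII (−50.4 to 57.0 per M). Of the other values of named transcripts, 447 kept direction and side of the threshold, 20 no longer passed and 6 passed. No paired analysis was possible because the labels number no replicates across groups. The causes were not tested. Members with few implied fragments, such as Gm17196, are limited by depth, transcripts of a gene by how fragments were divided, and antisense members by strand, for which no setting is given in the sources used here.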

Other observations

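Large swings within a group were seen in a number of abundant members. Of 51 members that reached 10 FPKM in a mouse, 8 fell short of 1 FPKM elsewhere in that group (15.7%, against 26.6% of the 9623 transcripts that reached 10 FPKM). They were transcripts of Gas5, a growth arrest snoRNA host with 12 listed transcripts, of Neat1, Malat1, Gt(ROSA)26Sor, Gm10804, 2010320M18Rik and 0610005C13Rik. The summed fragments of Gas5 were 13.4 ± 5.87 per M in Control, 15.6 ± 5.62 in AngII and 16.8 ± 1.88 in AngII + QDG (SD, n = 5 each), and the groups overlapped (AngII vs. Control, exact permutation p = 0.532).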
